A study of Mus musculus with 6 samples.

Results

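The insulin-like growth factor (IGF) family was followed along the aorta of mouse embryos, in its ascending and its descending segment, through 10 genes that code for its ligands, receptors and binding proteins. The genes were listed by name (Igf1, Igf2, Igf1r, Igf2r and Igfbp2 to Igfbp7, with every number between), not by their values here. All 10 of 10 were measured, each through 1 probe set, among 19938 genes in all. The ascending aorta (3 arrays) and the descending aorta (3 arrays) came from wild-type C57BL/6 mice at 13.5 days postcoitum, with no treatment. Per the labels the 3 arrays of each segment are biological replicates, but no animal, litter or pooling is given, so p-values measure only the spread between these samples, which may be technical. The study set ascending against descending aorta because their smooth muscle comes largely from cardiac neural crest and largely from mesoderm, in that order.

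IGF1 and IGF2 are secreted growth factors that signal through the IGF1 receptor, a tyrosine kinase, to the PI3 kinase and AKT pathway and drive growth of the embryo. The IGF2 receptor carries IGF2 to lysosomes and so removes it, and the Igf2 and Igf2r genes are imprinted in the mouse. The IGF-binding proteins hold the ligands outside the cell, and proteases that cut them release the ligands. In vessels smooth muscle cells both make and respond to these proteins.

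Over all 6 arrays, Igf2 gave nearly the same value in both segments, while the means of Igf1, Igfbp3, Igfbp4, Igfbp5 and Igfbp7 were lower and that of Igfbp2 was higher in ascending aorta. Of the 10 genes 0 passed an adjusted p of 0.05, as did 0% of all genes (limma, Benjamini-Hochberg over all 19938 genes, smallest adjusted p = 0.53). At an unadjusted p under 0.05 there were 1 higher (Igfbp2) and 1 lower (Igf1) of the 10, beside 3.96% of all genes higher, 5.33% lower and 9.29% in either direction. Igf1, Igfbp3 and Igfbp5 were low on ascending replicates 1 and 2. On ascending replicate 3 Igf1 was just below the descending arrays, Igfbp3 above them and Igfbp5 among them.

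The values are log2 expression after the authors' RMA, a procedure that subtracts background and makes the distributions of the arrays alike, so differences of 1 are 2-fold. Array medians lay between 7.14 and 7.22. Ascending replicate 3 stood apart from its group: across genes, which are not independent of each other, its correlation averaged 0.988 with ascending replicates 1 and 2 and 0.996 with the descending group. Whether its label or its dissection differed from the other ascending arrays was not tested, which bears on every ascending mean here. The family, the lists around it and the marker sums are therefore also given without that array. Smooth muscle actin Acta2, which marks the wall that was dissected, lay between 13.63 and 13.77 on all 6 arrays. Myh11, the smooth muscle myosin heavy chain, gave 10.39, 9.42 and 10.19 in ascending and 10.42, 10.63 and 10.55 in descending aorta, with its lowest value on ascending replicate 2. The means of the contractile proteins Tagln and Cnn1 were higher instead, with differences of 0.17 and 0.05 and overlapping groups, and without ascending replicate 3 these were 0.34 (adjusted p = 0.0999 by limma) and 0.17. With bulk tissue, fewer cells of a type and less RNA per cell cannot be told apart.

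The promoter windows of 4 genes are shown, picked by their values here. Igf1, Igfbp5 and Igfbp3 were low together on ascending replicates 1 and 2, and Igfbp2 had the 1 higher mean whose groups did not overlap. With all arrays none of these genes passed, and the groups of Igfbp5 and Igfbp3 overlapped. Windows of Igfbp4 and Igfbp7, which were lower without overlap, are not shown. The sequences are RefSeq's, build GRCm38.p6, from 250 bases before to 50 after the annotated start, in the direction of transcription. Capitals mark GGGCGG, the GC box, searched on both strands. The windows lie at chr10:87860861-87861160 (plus strand) for Igf1, chr1:72874816-72875115 (minus strand) for Igfbp5, chr11:7213874-7214173 (minus strand) for Igfbp3 and chr1:72824230-72824529 (plus strand) for the first of the 2 Igfbp2 windows.
Igf1: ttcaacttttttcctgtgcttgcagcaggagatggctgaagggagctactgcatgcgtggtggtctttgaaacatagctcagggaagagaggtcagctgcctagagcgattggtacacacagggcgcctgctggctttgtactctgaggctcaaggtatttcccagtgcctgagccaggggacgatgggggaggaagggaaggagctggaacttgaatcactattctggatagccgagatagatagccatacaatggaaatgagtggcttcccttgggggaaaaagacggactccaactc
Igfbp5: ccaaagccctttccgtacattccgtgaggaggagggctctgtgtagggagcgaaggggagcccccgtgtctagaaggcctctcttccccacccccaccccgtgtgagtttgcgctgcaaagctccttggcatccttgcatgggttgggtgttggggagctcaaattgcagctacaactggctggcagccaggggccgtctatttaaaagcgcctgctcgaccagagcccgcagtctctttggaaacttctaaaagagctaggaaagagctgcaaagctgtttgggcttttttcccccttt
Igfbp3: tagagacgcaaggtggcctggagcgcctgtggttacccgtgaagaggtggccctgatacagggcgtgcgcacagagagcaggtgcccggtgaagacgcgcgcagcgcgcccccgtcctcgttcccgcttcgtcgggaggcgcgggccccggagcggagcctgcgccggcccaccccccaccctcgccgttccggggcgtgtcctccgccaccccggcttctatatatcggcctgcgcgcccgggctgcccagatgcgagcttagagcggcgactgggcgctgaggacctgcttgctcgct
Igfbp2: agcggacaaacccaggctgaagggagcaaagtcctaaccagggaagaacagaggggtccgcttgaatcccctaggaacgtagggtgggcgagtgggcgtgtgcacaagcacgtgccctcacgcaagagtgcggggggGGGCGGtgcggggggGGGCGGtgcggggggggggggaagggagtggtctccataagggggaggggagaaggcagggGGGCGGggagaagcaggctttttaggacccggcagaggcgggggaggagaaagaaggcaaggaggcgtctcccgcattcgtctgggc

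The Igfbp2 window held GGGCGG 3 times and the windows of Igf1, Igfbp5 and Igfbp3 held it 0 times. Copies did not go with direction: the window of Igfbp7, whose ascending arrays were all lower, held 4, those of Igf2r and Igf1r held 3 and 2, and the second Igfbp2 window held 0. RefSeq gave 32851 such windows over all genes, and 35.7% of them held it at least once. The TATA box TATAAA, searched on both strands, was in 0 of these 4 windows and in 13.6% of all windows. CG dinucleotides, which the GC box also contains, numbered 6 in the Igf1 window, 10 in Igfbp5, 37 in Igfbp3 and 18 in Igfbp2, against a median of 7 over all windows. The windows of the genes that were low together thus differed from each other in CG content. Igfbp2 and Igfbp5 are neighbouring protein-coding genes on chromosome 1, on opposite strands and transcribed toward each other.

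Of the ligands, Igf1 (probe set 10365559), which in the embryo is made mainly by mesenchymal cells, gave 11.70, 10.91 and 12.21 on ascending replicates 1, 2 and 3, against 12.38, 12.27 and 12.23 on descending replicates 1, 2 and 3. All ascending arrays lay below all descending arrays, but ascending replicate 3 did so by a gap of 0.024 only. Igf1 averaged 11.61 ± 0.65 in ascending and 12.29 ± 0.074 in descending aorta (SD, n = 3 each). The difference was -0.69 ± 0.29 (SE) on the log2 scale, or 1.61-fold lower, with a 95% interval from -1.36 to -0.02, and did not pass (adjusted p = 0.534 by limma). Among all genes, 98.5% had a difference of this size or smaller. The value rests on ascending replicate 2: without it the difference was -0.34.

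Igf2 (probe set 10569344), the main IGF of fetal growth, gave 13.88, 13.88 and 13.85 in ascending and 13.86, 13.87 and 13.83 in descending aorta. The groups overlapped, and the whole range over the arrays was 0.054. The difference was 0.014, and its 95% interval from -0.15 to 0.17 spans from 0.904-fold to 1.13-fold, so any larger difference lies outside it (adjusted p = 0.955 by limma). Single values reached 14.6 on these arrays, and whether the Igf2 probes were near saturation was not tested.

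**Figure D1:**
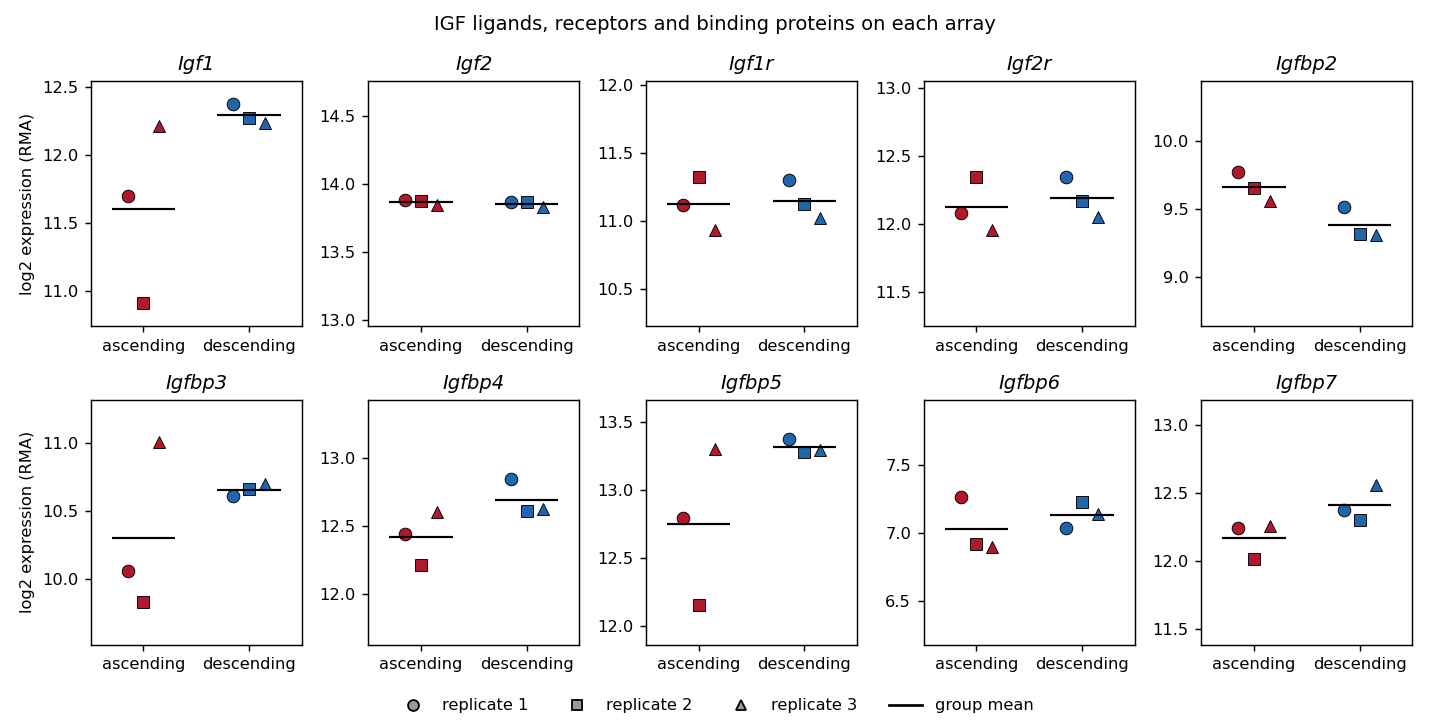
Log2 expression of the 10 genes on each array, 1 panel a gene, ascending aorta on the left and descending on the right, with symbols for replicates, lines for group means and the same span on every vertical axis. Igf2 is flat, while for Igf1, Igfbp3 and Igfbp5 ascending replicates 1 and 2 lie below the descending arrays. Ascending replicate 3 lies just below the descending arrays for Igf1, above them for Igfbp3 and among them for Igfbp5.

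The receptors overlapped between the segments. Igf1r (probe set 10554094), the signalling receptor, gave 11.12, 11.33 and 10.94 in ascending and 11.30, 11.13 and 11.03 in descending aorta. Its difference was -0.02 with a 95% interval from -0.31 to 0.26 (adjusted p = 0.956 by limma). Igf2r (probe set 10447799), the clearance receptor, gave 12.08, 12.35 and 11.96 in ascending and 12.35, 12.17 and 12.05 in descending aorta, a difference of -0.06 with a 95% interval from -0.35 to 0.23 (adjusted p = 0.885 by limma). For both receptors ascending replicate 2 was the highest ascending array, although the same array was the lowest for Igf1. Without ascending replicate 3 the differences were 0.07 for Igf1r and 0.03 for Igf2r, so neither receptor kept a direction.

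Among the binding proteins the means of Igfbp3, Igfbp4, Igfbp5, Igfbp6 and Igfbp7 were lower, and the mean of Igfbp2 was higher. Igfbp2 (probe set 10347277), a binding protein expressed widely in embryos, gave 9.77, 9.65 and 9.56 in ascending and 9.51, 9.31 and 9.31 in descending aorta. All ascending arrays lay above all descending arrays, with a gap of 0.047 between the groups. The difference was 0.28 ± 0.094 (SE), or 1.22-fold higher, with a 95% interval from 0.06 to 0.50, and it did not pass (adjusted p = 0.53 by limma). Unlike Igf1, Igfbp2 had a like spread in both segments, 0.11 in ascending and 0.11 in descending aorta (SD, n = 3 each). Ascending replicate 3 lay 0.18 above the descending mean, replicate 1 0.39 above it and replicate 2 0.28 above it.

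Igfbp5 (probe set 10355500), which binds extracellular matrix as well as IGFs, gave 12.80, 12.16 and 13.30 in ascending and 13.38, 13.28 and 13.30 in descending aorta. Ascending replicates 1 and 2 lay below every descending array and ascending replicate 3 lay among them. The difference was -0.57 ± 0.25 (SE), or 1.48-fold lower, with a 95% interval from -1.15 to 0.02 (adjusted p = 0.538 by limma). Igfbp5 averaged 12.75 ± 0.57 in ascending and 13.32 ± 0.052 in descending aorta (SD, n = 3 each), so nearly all of its spread was within the ascending group. As for Igf1, the value rests on ascending replicate 2, without which the difference was -0.27.

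Igfbp3 (probe set 10384223), the main IGF carrier of adult serum, gave 10.06, 9.83 and 11.01 in ascending and 10.61, 10.66 and 10.70 in descending aorta. Here ascending replicate 3 was the highest of the 6 arrays, and ascending replicates 1 and 2 were the lowest. The descending arrays agreed closely, at 10.66 ± 0.044, while the ascending mean was 10.30 ± 0.62 (SD, n = 3 each). The difference was -0.36 ± 0.27 (SE), with a 95% interval from -0.99 to 0.28 (adjusted p = 0.679 by limma). Leaving out ascending replicate 1 gave -0.24, and leaving out ascending replicate 2 gave -0.12.

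Igfbp4 (probe set 10381096), an inhibitor of IGF action that the protease PAPP-A cuts, gave 12.44, 12.21 and 12.60 in ascending and 12.85, 12.61 and 12.63 in descending aorta. The groups did not overlap, but only a gap of 0.0045 parted ascending replicate 3 from descending replicate 2. Igfbp7 (probe set 10530841), a low-affinity binding protein of vascular basement membranes, gave 12.25, 12.02 and 12.26 in ascending and 12.38, 12.30 and 12.56 in descending aorta, again without overlap. The differences were -0.27 ± 0.12 for Igfbp4 and -0.24 ± 0.10 for Igfbp7 (SE), and neither passed (adjusted p = 0.538 for each by limma). Without ascending replicate 2 that of Igfbp4 was -0.17. Igfbp6 (probe set 10427125), which prefers IGF2, gave 7.27, 6.92 and 6.90 in ascending and 7.04, 7.23 and 7.14 in descending aorta, close to the array median, where RMA makes differences smaller. Its groups overlapped, with a difference of -0.11 and a 95% interval from -0.38 to 0.17, and with single arrays left out it lay between -0.23 (without ascending replicate 1) and -0.04 (without ascending replicate 3).

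**Figure D2:**
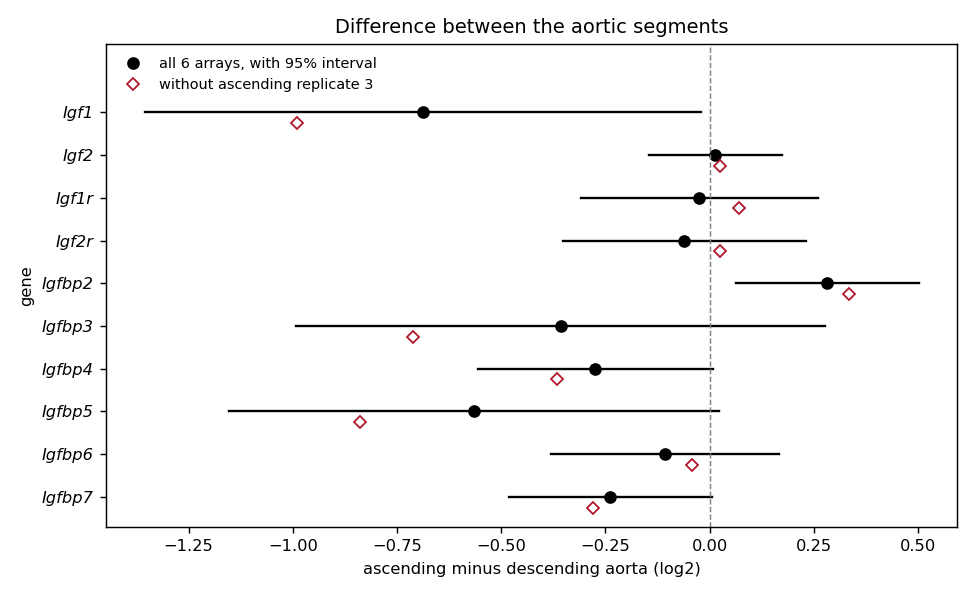
Ascending minus descending aorta on the log2 scale for each gene, with filled circles and bars for the fit of all 6 arrays and its 95% interval, and open diamonds for the fit without ascending replicate 3. The intervals of Igf1 and Igfbp2 leave out 0 before adjustment, that of Igf2 is the shortest, and the diamonds of Igf1, Igfbp3 and Igfbp5 lie furthest to the left.

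Counted together, 8 of the 10 genes had a lower mean in ascending aorta, as did 56.2% of all genes. The median difference of the 10 was -0.17, against -0.02 over all genes, and the median size of the difference without regard to sign was 0.26, against 0.093. The groups did not overlap for 4 of the 10 (Igf1, Igfbp4 and Igfbp7 lower, Igfbp2 higher), or 40%, beside 14.8% of all genes, 8.95% lower and 5.87% higher. The genes share the same 6 arrays, so these counts are not independent of each other. The median SD of the 10 genes was 0.20 in ascending and 0.10 in descending aorta, against 0.12 and 0.10 over all genes. On the 5 other arrays, leaving out ascending replicate 3, 6 of the 10 had a lower mean, as did 54.6% of all genes, with a median difference of -0.16 against -0.02.

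Without ascending replicate 3, an array singled out by its values, Igf1, Igfbp3 and Igfbp5 fell in ascending aorta. In that fit of 5 arrays the call was made for 3 of the 10 genes, all lower, or 30%, beside 4.68% of all genes, 2.61% lower and 2.07% higher. Igfbp3 fell by 0.71 ± 0.10 (SE, adjusted p = 0.00859 by limma), Igf1 fell by 0.99 ± 0.20 (adjusted p = 0.0343) and Igfbp5 fell by 0.84 ± 0.17 (adjusted p = 0.0342). These are 1.64-fold, 1.99-fold and 1.79-fold lower levels. Leaving out an array because it resembled the other group tends to widen the difference and makes the remaining spread too small. The differences are thus likely too large and the p-values too small, here and wherever that array is left out. Igfbp2, at 0.33 ± 0.10 (SE, adjusted p = 0.137), Igfbp4, at -0.37 ± 0.12 (adjusted p = 0.149), and Igfbp7, at -0.28 ± 0.12 (adjusted p = 0.273), did not pass there either. Igf2 stayed at 0.02.

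The place of ascending replicate 3 was expressed as a share of the way from the descending mean, at 0, to the mean of ascending replicates 1 and 2, at 1. It stood at 0.085 for Igf1, 0.02 for Igfbp5 and -0.49 for Igfbp3. It lay further toward its own group for Igfbp2, at 0.54, and for Igfbp7, at 0.55. Igfbp4 lay between, at 0.24. The array thus lay with the descending arrays for Igf1 and Igfbp5, beyond them for Igfbp3 and midway on this scale for Igfbp2 and Igfbp7. For Igfbp7, however, ascending replicates 1 and 3 lay side by side, at -0.17 and -0.15 from the descending mean, with ascending replicate 2 at -0.39. Igfbp6 had no such place, since its ascending replicates 1 and 2 lay on either side of the descending mean.

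**Figure D3:**
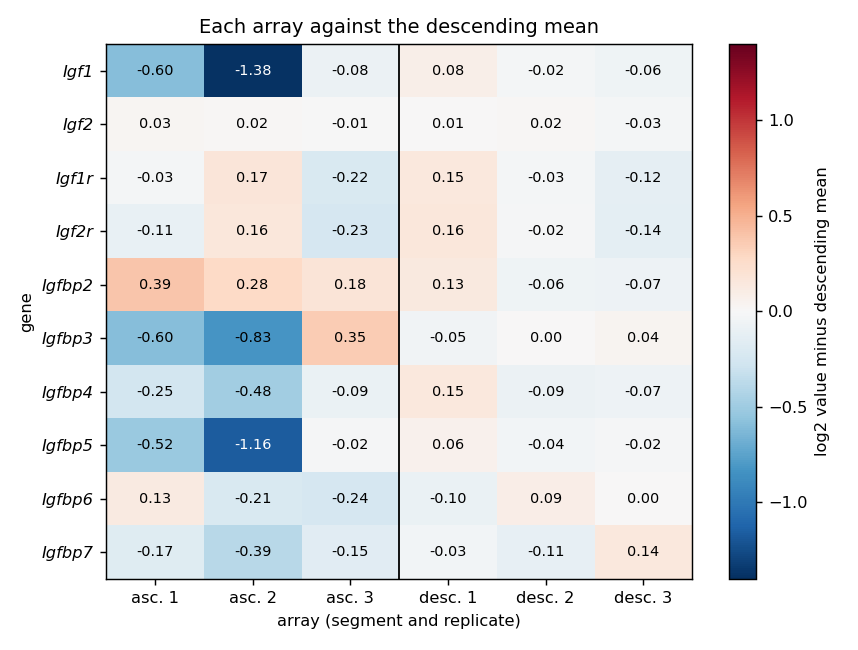
Log2 value on each array minus the descending mean, genes in rows and arrays in columns (asc. for ascending, desc. for descending), red above and blue below that mean. Ascending replicate 2 holds the lowest cells, -1.38 for Igf1 and -1.16 for Igfbp5, and ascending replicate 3 is pale for both.

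Igf1 had the largest range of the 10 genes over the arrays, 1.47 on the log2 scale, and its profile was set against those of all other genes by the root mean square distance of gene-centred values over the 6 arrays. The nearest genes were Cyp7b1, an oxysterol hydroxylase, at a distance of 0.041, Mme, the peptidase neprilysin, at 0.047, and Abca1, a cholesterol exporter, at 0.052. Lpar1, a receptor of lysophosphatidic acid, followed at 0.060 and Msr1, a scavenger receptor of macrophages, at 0.064. Igfbp5 ranked 10 among all other genes, at 0.082, and Igfbp3 ranked 302, at 0.25. All of these profiles share the low value on ascending replicate 2, and the measure is a description of these 6 arrays.

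The genes that act around the family were counted in 4 lists, 48 genes with each counted once. None passed in the fit of 6 arrays (0 of 48, smallest adjusted p = 0.53 by limma), with 6 lower and 0 higher at an unadjusted p under 0.05, or 12.5%, beside 5.33% of all genes lower and 3.96% higher. The groups did not overlap for 7 lower genes and 1 higher gene, or 16.7%, near the 14.8% of all genes. The median difference over the 48 was -0.05. In the fit without ascending replicate 3, 6 of the 48 passed, all lower, or 12.5%, beside 4.68% of all genes and 2.61% lower. These were 3 of 9 in the protease list, 2 of 24 in signalling, 0 of 5 in Igf2 mRNA regulation and 1 of 11 among imprinted genes. The limit given above for that fit holds for these lists too.

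Of the 9 genes in the protease list, 7 had a lower mean, and the median difference was -0.14. The list also holds the inhibitor Stc1 and the serum complex subunit Igfals, so these counts give no direction for release from the binding proteins. Adam12, a metalloproteinase that cuts IGFBP3 and IGFBP5, gave 9.17, 8.65 and 9.80 in ascending and 9.84, 9.80 and 9.95 in descending aorta, a difference of -0.66 ± 0.26 (SE). Pappa2, a protease of IGFBP5, gave 7.95, 7.41 and 8.37 in ascending and 8.35, 8.44 and 8.43 in descending aorta, a difference of -0.50 ± 0.21 (SE). In both, as in Igfbp5, ascending replicates 1 and 2 were low and ascending replicate 3 lay within or next to the descending range. Both differences rest on ascending replicate 2: without it they were -0.38 for Adam12 and -0.25 for Pappa2. Igfals, the acid-labile subunit of the serum complex, differed by -0.14, and by -0.09 without ascending replicate 3. Without ascending replicate 3 Adam12 fell by 0.96 and Pappa2 fell by 0.73 (adjusted p = 0.0129 and adjusted p = 0.0379 by limma). Stc1, an inhibitor of the PAPP-A proteases named after its values were seen, fell by 0.87 there (adjusted p = 0.0432 by limma), while over all 6 arrays it differed by -0.52 and without ascending replicate 2 by -0.19.

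Of the 24 measured of 27 genes of insulin and IGF signalling, 14 had a lower mean and the median difference was -0.03. Pik3r1, the regulatory subunit of PI3 kinase, gave 10.03, 9.76 and 10.35 in ascending and 10.80, 10.78 and 10.46 in descending aorta, without overlap, a difference of -0.63 ± 0.16 (SE, adjusted p = 0.53 by limma). Irs1, the adaptor that links the receptors to that kinase, gave 9.65, 9.59 and 10.10 in ascending and 10.57, 10.14 and 10.11 in descending aorta, also without overlap, a difference of -0.49 ± 0.17 (SE). Averaged over all its probe sets, which disagreed, Irs1 differed by -0.12. For both, ascending replicate 3 was the ascending array closest to the descending arrays. The gap between the groups was 0.107 for Pik3r1 but only 0.0115 for Irs1. Irs1 differed by -0.34 with descending replicate 1 left out. Akt2, a kinase of the pathway, differed by -0.24 and Gsk3b, a kinase it inhibits, by -0.08, both without overlap. The gap between the groups was 0.0865 for Akt2 and only 0.0061 for Gsk3b (adjusted p = 0.534 and adjusted p = 0.725 by limma). Akt2 was at -0.14 without ascending replicate 2, and without ascending replicate 3 the values were -0.31 for Akt2 and -0.08 for Gsk3b. Without ascending replicate 3 Pik3r1 fell by 0.79 and Irs1 fell by 0.65 (adjusted p = 0.0189 and adjusted p = 0.0482 by limma), and no other signalling gene passed. Insr, the insulin receptor, differed by -0.05 with a 95% interval from -0.35 to 0.25, and by 0.08 without ascending replicate 3.

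Of the 5 measured of 6 genes for RNA-binding proteins and regulators of Igf2 mRNA, 3 had a lower mean and the median difference was -0.05. Hmga2, a chromatin protein of growing tissue, differed by -0.23, Igf2bp1, which binds Igf2 mRNA, by 0.14 and Lin28b, an RNA-binding protein of early development, by 0.13. Lin28b did not overlap between the segments, at 5.64, 5.64 and 5.65 in ascending and 5.63, 5.52 and 5.39 in descending aorta, levels well under the array median. These differences rest on single arrays. Hmga2 stood at -0.02 with ascending replicate 1 left out, and at -0.43 with replicate 3 left out. Igf2bp1 was at 0.31, 0.03 and 0.09 without ascending replicates 1, 2 and 3, and at 0.02 with array weights. Lin28b was at 0.07 without descending replicate 3 and at 0.13 without ascending replicate 3. No gene of this list passed with or without ascending replicate 3.

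Of the 11 measured of 14 imprinted growth genes, 9 had a lower mean and the median difference was -0.11, against 0.014 for Igf2 itself. Peg3, a zinc finger gene expressed from the paternal allele, gave 12.40, 12.56 and 12.65 in ascending and 12.90, 12.94 and 12.83 in descending aorta, a difference of -0.35 ± 0.089 (SE, adjusted p = 0.53 by limma). Dlk1, a membrane protein related to Delta, gave 13.14, 13.10 and 13.48 in ascending and 13.60, 13.51 and 13.60 in descending aorta, a difference of -0.32 ± 0.11 (SE). Neither overlapped between the segments, and nor did Plagl1, a transcription factor that acts on Igf2, which differed by -0.17 (-0.11 without descending replicate 1). Mest, an imprinted gene of mesoderm, differed by -0.43 with overlapping groups, and by -0.20 without ascending replicate 2. Grb10, an adaptor that restrains the receptors and is counted in the signalling list too, differed by -0.06. Phlda2, named after its values were seen, went the other way, at 0.33 with overlapping groups, the highest difference of the 4 lists. Without ascending replicate 3 Phlda2 stood at 0.15. Without ascending replicate 3 Dlk1 fell by 0.44 (adjusted p = 0.032 by limma), the 1 gene of the list to pass. Peg3 at -0.41, Mest at -0.64, Plagl1 at -0.15 and Grb10 at -0.05 did not pass there (smallest adjusted p = 0.0583 by limma).

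**Figure D4:**
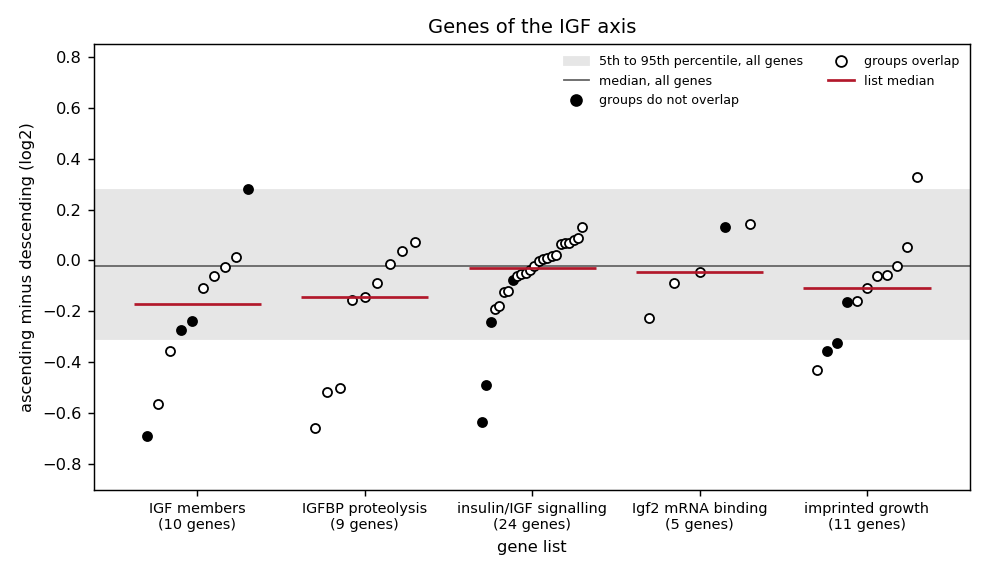
Ascending minus descending aorta on the log2 scale for every measured gene of the family and of the 4 lists around it, with filled circles where the groups do not overlap, red lines for list medians and a grey band from the 5th to the 95th percentile of all genes (-0.31 to 0.28). Most signalling genes lie inside the band, and the genes below it are Igf1, Igfbp5 and Igfbp3 in the family, Adam12, Stc1 and Pappa2 among the proteases and their inhibitors, Pik3r1 and Irs1 in signalling, and Mest, Peg3 and Dlk1 among imprinted genes. Above it lie Igfbp2 in the family and Phlda2 among imprinted genes.

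Markers of other cells also differed between the arrays, but not all in the pattern of Igf1 and Igfbp5. Of 9 macrophage markers 8 had a lower mean in ascending aorta, and their median stood at -0.14, -0.92 and 0.19 from the descending mean on ascending replicates 1, 2 and 3. Their summed linear level ran from 3699 to 9564 in ascending and from 7934 to 8541 in descending aorta. That highest sum was on ascending replicate 3, and the other ascending sums were 3699 and 6020. Thus the array lowest in Igf1 was also the array lowest in macrophage markers. That array was lowest in the red cell and skeletal muscle sums too, while the endothelial sum was lowest on ascending replicate 1. Ascending replicate 2 was also the highest array in the sums of mesothelium and epicardium (12284), cardiac muscle (10917) and liver (2275).

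All 10 endothelial markers had a lower mean, with summed levels from 15066 to 21802 in ascending and from 22549 to 26458 in descending aorta. All 8 markers of mesothelium and epicardium had a higher mean, with summed levels from 4779 to 12284 in ascending and from 3261 to 4450 in descending aorta. All 11 cardiac muscle markers had a higher mean, with summed levels from 6674 to 10917 in ascending and from 4882 to 6245 in descending aorta. Linear sums weigh bright genes most, and the cardiac medians did overlap. They stood at 0.13 from the descending mean on ascending replicate 3 and at 0.16 on descending replicate 3. Endothelial, mesothelial and cardiac markers thus did not overlap between the segments in their sums, and ascending replicate 3 was the ascending array nearest to the descending ones in each. Without it the ascending sums were 15066 and 16169 for endothelium, 11292 and 12284 for mesothelium and epicardium, and 8529 and 10917 for cardiac muscle. Their part, and that of macrophages, in the values of Igf1, Igfbp2, Igfbp3, Igfbp4, Igfbp5 and Igfbp7 was not tested.

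Over all 6 arrays the sums overlapped for the other marker lists. The 9 smooth muscle markers summed to between 31650 and 39783 in ascending and between 35378 and 35582 in descending aorta, with 5 lower means and differences from -0.53 for Myh11 to 1.41 for Des, the muscle filament desmin, named after its values were seen. The sums on ascending replicates 1 and 2, 39783 and 37323, both lay above the descending ones. The 7 liver markers summed to between 860 and 2275 in ascending and between 912 and 2239 in descending aorta, with 2 lower means. For skeletal muscle, 3 of 8 markers had a lower mean, and the sums ran from 1351 to 1749 in ascending and from 1454 to 1639 in descending aorta. For cartilage, 4 of 8 had a lower mean, with sums from 2407 to 2674 in ascending and from 2155 to 2458 in descending aorta, and 2594 and 2674 in ascending aorta without replicate 3. For red cells, 2 of 4 had a lower mean, with sums from 16783 to 21804 in ascending and from 19229 to 24233 in descending aorta. The liver, skeletal muscle and red cell sums also overlapped with ascending replicate 3 left out. Array values have no true zero, and the lowest single marker values were 5.33 for skeletal muscle (Myf5) and 5.65 for macrophages (Aif1).

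**Figure D5:**
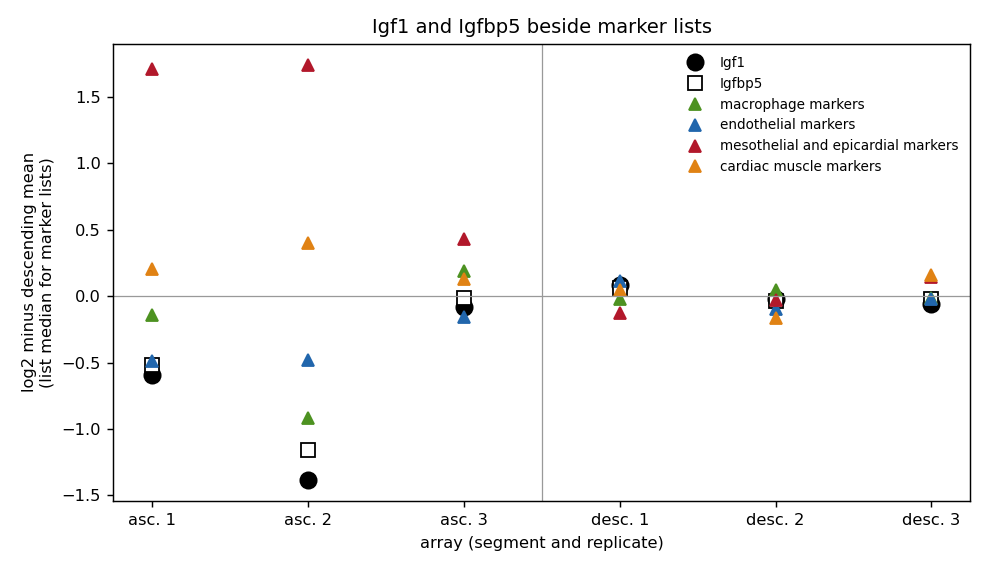
Log2 value minus the descending mean on each array for Igf1 (filled circles) and Igfbp5 (open squares), with the median of 4 marker lists (triangles). Igf1 at -1.38, Igfbp5 at -1.16 and the macrophage median at -0.92 have their lowest points on ascending replicate 2, and on ascending replicate 3 the mesothelial median is 0.43 where the other ascending arrays give 1.70 and 1.74.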

How the data were processed

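Per the labels' protocols, Trizol was used to extract total RNA, and biotinylated cRNA made from it was hybridised to Affymetrix arrays. The values are log2 expression per probe set, deposited by the authors after RMA, which with Partek 6.6 is named per the submitters' processing notes. Its settings, genome build and annotation were not given in the sources used here. RMA equalises the arrays, which hides a shift common to most genes.

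Of 35556 probe sets, 21789 had 1 gene symbol in the platform annotation, 1621 several and 12146 none. The probe set with the highest mean was kept for each gene, which left 19938 genes. Each of the 10 members had 1 probe set, and symbol and Entrez number matched RefSeq for 10 of 10. Groups came from the sample labels. Segments were compared on all 6 arrays with limma 3.58.1 (lmFit and eBayes) in R 4.3.3, with no covariate. Tests were two-sided at an adjusted p of 0.05, by Benjamini-Hochberg over all genes. Lists are described by counts and medians beside those of all genes. Having few arrays limits the precision. Tables and plots used Python 3.11.15. The fit was tested on simulated data that had the spread of the descending arrays and planted differences larger than that of any member. That test does not cover the wider spread of the ascending group.

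Members, lists and tests were chosen with earlier results of these data known. All members are named, and of each pathway list the 3 genes with the smallest unadjusted p and those whose groups do not overlap. Replicate numbers were checked for pairing: over genes, deviations from the group mean correlated at -0.08, -0.055 and 0.024 for numbers 1, 2 and 3. The largest correlation was 0.168, between ascending replicate 1 and descending replicate 2. With so few arrays these values cannot show whether the numbers pair the arrays. List genes without a probe set of 1 symbol were not analysed here. Alternatives are given in the closing section.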

Additional observations from a re-analysis of the deposited data

How the results depend on the processing

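The 15 alternatives were a repeated quantile normalization, median-centring, leaving out the dimmest 25% or 50% of genes, averaging the probe sets of each gene, testing every probe set, robust estimation with a variance trend, weighted arrays, a block on replicate number, and leaving out each array in turn. In 14 of them 0 genes passed. Leaving out each array in turn gave 0 to 933 genes, 0 to 3 of the IGF genes and 0 to 6 of the genes in the 4 lists, the higher count in each case without ascending replicate 3. With the replicate number as a block 0 genes, 0 IGF genes and 0 list genes passed. Whether the numbers pair the arrays is not known, so this says nothing further. Values under the alternatives were counted for 27 genes of the family and the lists that are named with a difference, Phlda2 left out. Of 401 values, 384 kept direction and side of the threshold, 9 passed in addition, all without ascending replicate 3, and 8 turned direction. Since 0 genes passed with all arrays and in 14 alternatives, the side of the threshold was nearly fixed beforehand. The count of 384 therefore says little about size. Irs1, for example, is counted there although it went from -0.49 to -0.12 with its probe sets averaged. Igf1r, between -0.124 and 0.0717 with each array left out, turned to 0.0131 with array weights, 0.0717 without ascending replicate 3 and 0.0513 without descending replicate 1. Igf2r, between -0.171 and 0.0251 with each array left out, turned to 0.0251 without ascending replicate 3 and 0.0183 without descending replicate 1. Insr, between -0.118 and 0.077 with each array left out, turned to 0.0295 with array weights, 0.077 without ascending replicate 3 and 0.0286 without descending replicate 1. The cause was not tested. The median of the IGF genes lay between -0.232 and -0.142 with each array left out and between -0.238 and -0.138 otherwise. The median of the protease list moved to -0.0767 with array weights and to -0.327 without the dimmest 50% of genes, where fewer of its genes remain. With each array left out it lay between -0.192 and -0.0889, that of signalling between -0.0644 and -0.00850, that of Igf2 mRNA regulators between -0.0942 and 0.0137, and that of imprinted genes between -0.149 and -0.0751. Igf1 ranged from -0.99 to -0.34, Igfbp5 from -0.84 to -0.27 and Igfbp3 from -0.71 to -0.12, the larger sizes without ascending replicate 3 and the smaller without ascending replicate 2, and Igfbp2 ranged from 0.23 to 0.35. With 3 arrays a segment, only differences well above the ascending spread could pass.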
